A study of Mus musculus with 26 samples.

Results

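The regions described here were stretches of open chromatin in mouse embryonic stem cells (mESC) for which the merged M-ATAC data gave accessibility but no DNA methylation. They were the distinct regions of the merged M-ATAC peak list without any cytosine in the authors' merged methylation table, matched on chromosome, start and end with an offset of at most 1 bp. There were 6214 of these unmeasured regions among 66726 distinct regions (9.31%). The other 60512 regions were matched by at least 1 listed cytosine and are called measured. In 78 of them, all without a CpG, no listed cytosine lay inside.

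M-ATAC cuts open chromatin with a Tn5 transposase that carries methylated adaptors and then converts the fragments with bisulfite, so that reads of 1 library report both accessibility and methylation. M-ChIP applies the same steps to chromatin pulled down with an antibody. The mESC were KH2 cells grown on irradiated feeder cells, which were removed by pre-plating, and gave 4 M-ATAC samples and 2 samples each of M-ATAC-NC (the aliquot left unconverted), ATAC, CTCF M-ChIP, CTCF M-ChIP-NC (unconverted) and CTCF ChIP. The KLF4 lists came from Klf4-/- mESC, with 2 samples each of cells given WT KLF4, cells given the R462A mutant, both from a lentivirus and induced with doxycycline, and cells without KLF4, while expression came from 2 merged RNA-seq samples of mESC. No source said whether replicates were separate cultures, so p-values here measure only the spread between these samples.

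In mammals DNA methylation is found mostly at CpG dinucleotides, and methylated cytosine mutates readily to thymine, so that most of the genome has lost CpGs and gained TG and CA. CpG islands, often at promoters, have kept theirs and are mostly unmethylated. CTCF is a zinc finger protein of insulators and chromatin loops, and KLF4 is a zinc finger factor of the pluripotency network that recognises GC-rich boxes with or without a CpG.

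The RNA-seq table matched the cell label. All 8 stem cell markers were expressed, from 229 TPM for Zfp42 to 5394 TPM for Dppa5a, with a sum of 8787 TPM. The 7 feeder fibroblast markers summed to 125 TPM, with Col1a1 the most abundant at 48.7 TPM, Twist2 the lowest at 0.43 TPM and 0 genes at 0. The part of feeder cells in the peaks was not tested.

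Nearly all unmeasured regions had no site at which CpG methylation could be read. In the GRCm38 reference 6183 of 6214 (99.5%, 95% Wilson interval 99.3 to 99.6) held 0 CpGs, against 143 of 60512 measured regions (0.236%). Of those 143 measured regions, 78 had no listed cytosine inside and 1 only at the edge that the offset allows. This content follows closely from the rule and is given as a description. It depended on counting any read: when regions without a cytosine of at least 5 reads were taken instead, 11899 regions qualified and 52.9% of them held 0 CpGs. Just inside the measured side, 628 regions had a single listed cytosine, and in 94 of these it was covered by 1 read.

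The 31 unmeasured regions that did hold CpGs were few but not at their borders. There were 25 with 1 CpG, 4 with 2 and 2 with 3, a total of 39 CpGs against 842197 in measured regions. Their CpGs lay 45 to 201 bp from the nearer edge of the region, with a median of 91 bp. These 31 regions had a median width of 298 bp and a median fold of 6.32, and 3 of them overlapped a peak in all 4 M-ATAC samples. The 2 regions with 3 CpGs were at chr2:4293484-4293996, in an intron of Gm13187, and at chr4:10759665-10759885, in an intron of 1700123O12Rik. The former had a fold of 14.2 in the merged list, a peak in M-ATAC replicate 4 alone (fold 13.6) and peaks in all 4 unconverted libraries (folds of 9.27 and 11.7 in M-ATAC-NC and of 7.44 and 4.55 in ATAC). The latter had a merged fold of 4.58 and no peak in any of these 8 libraries. A CTCF region in an intron of Kdm4b, chr17:56357468-56357793, held 2 CpGs and a peak in 6 of 6 CTCF libraries. Why no read was listed at these CpGs was not tested. The plus strand of the region in 1700123O12Rik (GRCm38, chr4:10759665-10759885) is shown because it is the whole of a region whose CpGs, in capitals, went without a listed read.
1700123O12Rik region: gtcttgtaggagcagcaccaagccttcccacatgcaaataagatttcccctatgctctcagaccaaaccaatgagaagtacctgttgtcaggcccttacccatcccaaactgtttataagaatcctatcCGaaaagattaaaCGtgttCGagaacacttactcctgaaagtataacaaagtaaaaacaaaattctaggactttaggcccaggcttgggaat

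Measured regions with few CpGs give the nearest view of methylation at such sequence. In the 8488 measured regions with 1 CpG, 19187 of 92791 reads were methylated (20.7%, 20.4 to 20.9). With 2 CpGs the share was 18.8%, with 3 to 5 CpGs 14.2%, and with over 5 CpGs 1.41%. Methylation was thus higher the fewer CpGs a measured region had. The 1-CpG regions are used below as a second comparison, chosen after the data were seen, since they are the measured regions nearest in CpG number. They also differed from the unmeasured regions in width, GC content and repeats, as given below.

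Unmeasured regions were narrow and weak peaks. A short region has fewer places for a CpG, so the rule itself favours narrow regions, and the width values are a description. Their median width was 186 bp (184 to 189) against 299 bp (297 to 301) in measured regions, and 202.5 bp in 1-CpG regions. The difference of -113 bp was -16.5 bp against 1-CpG regions. The median fold over local background was 5.82 against 7.29, a difference of -1.46 that was -0.267 against the 6.09 of 1-CpG regions, and the median −log10 q was 8.04 against 13.25. More than 1 summit was found in 2.61% of unmeasured regions and in 17.4% of measured ones. Width, fold and −log10 q were lower on 20 of 20 chromosomes, with width differences from -139 to -96 bp. By width in 5 bins of about equal size, the unmeasured share fell from 19.8% of the narrowest regions to 14.0%, 8.30%, 3.53% and 0.783% of the widest. Over fold bins it went from 13.0% in the lowest to 3.78% in the highest.

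Base composition differed as well. Sequence of low GC content has fewer places for a CpG, so the rule itself favours such regions, and the composition values are a description. Whether composition differed beyond what the missing CpGs bring with them was not tested. The median GC content was 46.9% (46.7 to 47.0) in unmeasured regions, 53.0% in measured regions and 48.1% in 1-CpG regions. TG and CA dinucleotides together had a median of 16.2 per 100 bases, against 14.9 in measured and 16.1 in 1-CpG regions. Repeats, soft-masked in the reference, covered more than 50% of 1576 unmeasured regions (25.4%), of 9.45% of measured regions and of 19.1% of 1-CpG regions. Each of these differences between unmeasured and measured regions had the same direction on 20 of 20 chromosomes. By composition and repeats the 1-CpG regions stood between the other groups, nearer to the unmeasured.

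Many unmeasured regions shared sequence with other peaks. A stretch of 24 bases found in another of the 66726 regions, on either strand, was present in 2381 of them (38.3%, 37.1 to 39.5), in 21.0% of measured regions and in 31.1% of 1-CpG regions. In the narrowest bin of width the shares were 32.1% and 14.9%. Shared stretches were more frequent in well supported peaks: they were found in 33.5% of unmeasured regions without a peak in any M-ATAC sample and in 53.8% of those with a peak in all 4, against 16.0% and 25.6% in measured regions and 24% and 54.3% in 1-CpG regions. Well supported unmeasured and 1-CpG regions thus shared sequence alike, and regions that share it are not independent observations.

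The unmeasured regions lay away from gene starts. Within 3 kb of a transcription start, here called promoters, there were 1043 of them (16.8%, 15.9 to 17.7), where 39.7% of all regions lay. Among measured regions the share was 42.0%, a difference of -25.2 percentage points, seen on 20 of 20 chromosomes (-34.5 to -20.1). Against the 17.8% of 1-CpG regions the difference was -1.05 percentage points, and within width bins -17.0. Genes outside promoters held 37.9% of unmeasured and 29.4% of measured regions, and intergenic sequence 45.3% and 28.6%. Exons were overlapped by 4.54% against 31.2%. The median distance to a start was 13065 bp in unmeasured and 5182.5 bp in measured regions. From the side of the genome, 3.94% of promoter regions, 11.7% of genic regions and 14.0% of intergenic regions were unmeasured. By chromosome the unmeasured share ran from 6.53% on chromosome 11 to 14.0% on X, with 0 of 4 regions on Y.

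Distances to measured peaks were longer as well. The nearest measured region was at a median of 12239 bp (11587 to 12764), against 7822 bp to the nearest other measured region for all regions and 9751.5 bp for 1-CpG regions. Within 1 kb there was one for 480 unmeasured regions (7.72%), 13.5% of all regions and 8.95% of 1-CpG regions. Methylation of a close neighbour was thus on hand for few of these regions.

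Fewer unmeasured regions were found again in single samples. M-ATAC replicates 1 to 4 had a peak at 17.0%, 19.6%, 22.9% and 20.7% of unmeasured regions, and at 40.6%, 45.4%, 45.0% and 43.2% of measured regions. Each sample supported the unmeasured regions less. The mean difference was -23.5 ± 1.63 percentage points (SD, n = 4), below 0 in 4 of 4 samples, with an exact two-sided sign-flip permutation p of 0.13, the smallest that 4 samples allow (adjusted over 8 tests, 0.2). The merged list was called on reads of such samples, so this support is not independent of the regions. No peak of any M-ATAC sample was found at 3482 unmeasured regions (56.0%), against 34.7% of all regions and 32.5% of measured ones. A peak in all 4 samples was found at 353 (5.68%), against 23.1% of all regions and 24.9% of measured ones.

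Libraries that never saw bisulfite gave the same order. M-ATAC-NC replicates 1 and 2 had peaks at 18.4% and 21.8% of unmeasured and 45.4% and 51.2% of measured regions. ATAC replicates 1 and 2 had peaks at 15.0% and 22.8% of unmeasured and 37.2% and 45.9% of measured regions. The low support was therefore present with and without conversion. Over these 4 libraries the mean difference was -25.4 ± 3.34 percentage points (SD, n = 4; exact two-sided sign-flip permutation p = 0.13, the smallest possible, adjusted 0.2). No peak of the 8 libraries overlapped 2775 unmeasured regions (44.7%, against 22.1% of measured), and peaks of all 8 overlapped 235 (3.78%, against 19.9%).

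Width moved with this support, and regions of like width differed little in it. From the narrowest to the widest bin, the mean share over the 4 M-ATAC samples was 3.91%, 16.7%, 40.5%, 62.7% and 83.9% for unmeasured regions and 4.24%, 17.6%, 38.2%, 62.7% and 84.4% for measured ones. Averaged over width bins with the weights of the unmeasured regions, the difference of -23.5 became -0.0416 percentage points in M-ATAC and that of -25.4 became -1.78 in the unconverted libraries. Within fold bins the differences were -9.91 and -14.0 percentage points, and within bins of width and fold together, tried after the data were seen, -1.29 and -2.49. Against 1-CpG regions they were -4.69 and -3.53. When at least 50% of a region had to be covered, the difference in M-ATAC was -15.0 percentage points. The lower support of unmeasured regions was thus small at equal width and larger at equal fold.

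Relative to all measured regions, converted and unconverted libraries overlapped in how well they supported the unmeasured regions. The share of unmeasured regions with a peak divided by the share of measured ones was 0.419, 0.433, 0.509 and 0.479 in the M-ATAC replicates, 0.405 and 0.426 in M-ATAC-NC, and 0.403 and 0.497 in ATAC. By these ratios the groups overlapped between M-ATAC and both controls. Between M-ATAC and ATAC the mean ratio differed by 0.00979 (exact two-sided permutation p = 0.8, adjusted 0.914). This sign turned without M-ATAC replicate 3 (-0.00677) or without ATAC replicate 1 (-0.0371). It also turned with the replicate block of numbers 1 and 2 (-0.0244). Against 1-CpG regions the difference was -0.0721 (exact permutation p = 0.133, the smallest possible). Without pairing of aliquots to their samples, M-ATAC exceeded M-ATAC-NC, the unconverted aliquots, by 0.0439 (exact permutation p = 0.267, adjusted 0.356). This gap was 0.00967 within the replicate block of numbers 1 and 2, 0.0273 without M-ATAC replicate 3, 0.00414 with a minimum of 5 reads, 0.127 with 50% of the region covered and -0.0015 against 1-CpG regions, so its size was not settled. The smallest p with 4 against 2 samples is 0.133. M-ATAC-NC differed from ATAC by -0.0341 (exact permutation p = 1, adjusted 1, smallest possible 0.33), and by 0.0128 without ATAC replicate 2. Among the 353 unmeasured regions with a peak in all 4 M-ATAC samples, 11 (3.12%) had no peak in any unconverted library, as had 162 of 15056 measured regions (1.08%). In the other direction, 22 of 469 unmeasured regions with a peak in all 4 unconverted libraries (4.69%) had none in M-ATAC, against 2.42% of measured regions.

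Where single M-ATAC samples did have a peak at an unmeasured region, it was lower. The median fold of these peaks in M-ATAC replicates 1 to 4 was 6.13, 6.51, 6.02 and 6.34, against 7.18, 7.61, 6.89 and 6.98 for peaks at measured regions. The mean difference was -0.917 ± 0.208 (SD, n = 4), below 0 in 4 of 4 samples (exact two-sided sign-flip permutation p = 0.13, the smallest possible, adjusted 0.2). Against 1-CpG regions it was -0.126. By region, the median fold in unconverted libraries was 5.86 against 6.40 and 5.93 against 6.75 in M-ATAC-NC, and 5.69 against 5.69 and 5.42 against 5.77 in ATAC, so ATAC replicate 1 showed no gap. The few unmeasured regions found in all 4 samples were strong peaks, with a median fold of 14.6 and a median width of 368 bp, against 13.7 and 530 bp for measured regions of like support. The choice by a peak in all 4 samples favours a high merged fold in both groups. All but 3 of these 353 unmeasured regions held 0 CpGs, and their peaks were narrower than measured ones of like support.

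CTCF peaks were less frequent at unmeasured regions in every CTCF library. The shares were 5.44% and 5.09% in CTCF M-ChIP, 4.22% and 5.28% in CTCF M-ChIP-NC and 6.36% and 7.00% in CTCF ChIP. Measured regions had 12.3% and 10.3%, 9.55% and 11.3%, and 13.8% and 15.9%. The groups did not overlap, and over the libraries the mean difference was -6.62 ± 1.41 percentage points (SD, n = 6), below 0 in 6 of 6 libraries (exact two-sided sign-flip permutation p = 0.031, the smallest possible, adjusted over 8 tests 0.2). The result therefore did not pass the adjustment. By the methods, unconverted controls were aliquots of converted samples, so the 6 libraries are not 6 separate samples. Without CTCF M-ChIP-NC, tried after the data were seen, the difference was -7.09 percentage points over 4 libraries, with an exact permutation p of 0.13, the smallest possible, so the call at 0.05 ended. Unlike support in M-ATAC, it did not shrink at equal width, where the difference was -8.81 percentage points. It was -2.87 against 1-CpG regions and -3.35 when 50% of the region had to be covered.

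The merged CTCF M-ChIP list overlapped 385 unmeasured regions (6.20%), against 12.7% of all regions, 13.3% of measured and 9.21% of 1-CpG regions. Where CTCF was found, the median fold of the overlapped CTCF peak was 11 (10.4 to 11.6) at unmeasured, 11.3 (11.1 to 11.4) at measured and 12.1 (11.8 to 12.5) at 1-CpG regions. CTCF peaks at unmeasured regions were thus near the measured ones in height and below those of 1-CpG regions. The deposited matches to the CTCF motif, searched by the authors within CTCF M-ChIP peaks, lay in 332 of these 385 regions (86.2%, 82.4 to 89.3) and in 85.5% of their measured counterparts. None of the 6214 regions had a cytosine in the authors' table of CTCF motif cytosines, while 4449 measured regions had. The rule nearly fixes this absence, since nearly all unmeasured regions lacked a CpG. Of the 332 regions with a motif match, only 4 held any CpG. As a description, CTCF peaks at these 332 regions lay over motifs for which the table gives no methylation.

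The 3 unmeasured regions with the highest merged CTCF fold showed this in sequence. The region chr7:101412905-101413131, 2019 bp from a start of Gm45837, had a merged CTCF fold of 27.5 and folds of 22.4 and 21.2 in CTCF M-ChIP, 17.5 and 19.3 in CTCF M-ChIP-NC and 25 and 25.2 in CTCF ChIP. It carried 2 motif matches on opposite strands. The intergenic region chr1:189628475-189628654 had a merged CTCF fold of 25.9, and that in an intron of Top2b, chr14:16380279-16380494, one of 24.5. Each of the 3 had a CTCF peak in 6 of 6 libraries, while M-ATAC peaks were found in 1, 0 and 2 of 4 samples. Their high CTCF signal follows from how they were chosen. The plus strands of the whole regions (GRCm38) follow, with the authors' CTCF matches in capitals, because they show bound motifs without a CpG.
Gm45837 region: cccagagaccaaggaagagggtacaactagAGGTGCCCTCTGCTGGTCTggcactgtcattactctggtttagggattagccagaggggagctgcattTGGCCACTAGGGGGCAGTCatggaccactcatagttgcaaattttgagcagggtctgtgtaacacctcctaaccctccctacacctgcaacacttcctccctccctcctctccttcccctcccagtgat
Chromosome 1 region: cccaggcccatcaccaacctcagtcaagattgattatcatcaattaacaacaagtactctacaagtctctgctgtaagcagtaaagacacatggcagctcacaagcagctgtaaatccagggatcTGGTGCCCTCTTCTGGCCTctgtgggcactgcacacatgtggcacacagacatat
Top2b region: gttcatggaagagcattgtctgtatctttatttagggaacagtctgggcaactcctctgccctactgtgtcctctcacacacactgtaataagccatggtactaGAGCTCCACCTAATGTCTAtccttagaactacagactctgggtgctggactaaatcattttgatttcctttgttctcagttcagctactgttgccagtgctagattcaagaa

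KLF4 lists gave small shares. The WT and R462A lists stand under samples titled M-ATAC, while the methods name their peak caller for KLF4, so the labels do not settle whether they hold KLF4 binding or accessibility. The R462A lists, of 7390 and 5821 regions, overlapped far smaller shares of the regions than any list of M-ATAC replicates 1 to 4 did. WT lists overlapped 0.901% and 1.66% of unmeasured and 4.25% and 7.44% of measured regions. R462A lists overlapped 0.290% and 0.257% against 0.174% and 0.271%, and knockout lists 4.63% and 9.46% against 8.51% and 12.7%. The knockout lists are titled KLF4 ChIP, so they differ from the other lists in assay as well as genotype. Differences were -4.57 percentage points on average in WT, 0.0513 in R462A and -3.54 in knockout lists, so the lists did not share 1 difference. The mean over these unlike groups was -2.68 ± 2.31 percentage points (SD, n = 6), below 0 in 5 of 6 lists (exact two-sided sign-flip permutation p = 0.0938, smallest possible 0.031, adjusted 0.2). It was -0.380 within width bins, -1.45 within fold bins and -0.459 against 1-CpG regions.

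Regions in both WT lists and in neither knockout list numbered 24 among the unmeasured (0.386%), where 1.65% of all regions and 1.78% of measured regions were such. Among 1-CpG regions the share was 0.389%. The KLF letters without a CpG, GGGTGTGG, stood within 150 bases at the summit in 16 of these 24 (66.7%, 46.7 to 82.0), against 7.08% of all unmeasured regions and 12.7% of the 1075 measured regions of the same KLF4 set. The form with a CpG, GGGCGTGG, was found in 0 of 24, and in the 1075 in 21.5%. The rule nearly fixes this 0, since none of the 24 held a CpG. Windows can reach beyond narrow regions, and 4 of all unmeasured regions had this form in the window. Among 33 1-CpG regions of this set 57.6% had the form without a CpG. The WT KLF4 set within unmeasured regions thus mostly carried the CpG-free form of the motif.

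The 3 such regions with the highest merged fold had other sequence. The region chr5:67155557-67155992, with a fold of 20.2 and peaks in 8 of 8 libraries, was a tandem repeat in which 78.8% of stretches of 12 bases recurred within the region, with a GC content of 64.0%. Its folds were 17.2, 17.4, 11.3 and 8.79 in M-ATAC, 5.03 and 9.97 in M-ATAC-NC and 3.94 and 5.30 in ATAC. The region was chosen by merged M-ATAC fold, so nothing is read from M-ATAC against unconverted values there. The region chr13:20936045-20936382, in an intron of Aoah, had a fold of 18.1 and peaks in 8 of 8 libraries. That in an intron of Gm49455, chr16:10216441-10216709, had a fold of 17.8 and peaks in 3 of 4 M-ATAC samples. None of the 3 held GGGTGTGG. A stretch of the repeat is printed (GRCm38, chr5:67155673-67155872, plus strand), without capitals since no searched motif was in it, because it shows how GC-rich sequence can lack CpGs.
Tandem repeat: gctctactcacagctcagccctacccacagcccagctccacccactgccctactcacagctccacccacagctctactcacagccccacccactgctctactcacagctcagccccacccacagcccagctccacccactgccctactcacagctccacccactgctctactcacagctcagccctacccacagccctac

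Most searched letters without a CpG were more frequent in unmeasured regions than in all measured ones. Unmeasured regions also had the lower GC content (median 46.9% against 53.0%), and motif shares at equal GC content were not compared. In windows of 150 bases at the summit, on both strands, 7 of the 9 motifs without a CpG were more frequent than in measured regions. The other 2 of the 11 searched contain a CpG, so the rule nearly bars them from unmeasured regions and nothing is read from them. SOX letters ATTGTT were found in 15.3% of unmeasured and 9.31% of measured regions, and the octamer ATGCAAAT, read by POU factors such as POU5F1, in 4.25% and 2.79%. For the nuclear receptor ESRRB, TCAAGGTCA was found in 1.45% and 0.801% and the shorter AAGGTCA, which it contains, in 7.98% and 4.63%. AP-1 letters TGANTCA were in 15.1% and 10.3%, TEAD letters GGAATG in 16.2% and 11.8%, and GGGTGTGG in 7.08% and 4.82%. In these windows SOX, AP-1 and TEAD letters were higher on 20 of 20 chromosomes.

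Letters of CTCF were rarer, and those of NF-Y differed little. The CTCF part AGNNGGCNC was in 7.39% of unmeasured and 13.8% of measured windows. The NF-Y letters CCAAT were in 21.0% (20.1 to 22.1) and 22.0% (21.7 to 22.4). Their intervals overlapped, and the share was lower on 12 of 20 chromosomes. By whole region, which favours the wider measured regions, 5 of 9 motifs without a CpG were more frequent. By that count TEAD letters turned direction (21.5% against 22.5%, lower on 14 of 20 chromosomes) and GGGTGTGG had no gap (8.18% against 8.19%). In windows of 150 bases the 1-CpG regions had nearly the unmeasured shares, with SOX letters in 14.9% and AP-1 letters in 14.6%. The octamer, in 4.50% of 1-CpG regions, and NF-Y letters, in 20.4%, turned direction in this comparison. In regions with a peak in all 4 M-ATAC samples, SOX letters were in 21.8% of the 353 unmeasured and 9.84% of measured ones, and AP-1 letters in 13.6% and 6.38%. There TEAD letters were in 13.6% and 10.3%, the octamer in 3.97% and 3.22%, AAGGTCA in 8.22% and 4.11%, GGGTGTGG in 5.95% and 4.05%, TCAAGGTCA in 1.13% and 0.631%, the CTCF part in 7.08% and 13.0%, and NF-Y letters in 17.3% and 30.6%. The gap in NF-Y letters was thus wider in well supported regions than overall. Of these well supported regions, 14.4% of unmeasured and 59.4% of measured ones lay at promoters, as did 15.0% of 1-CpG regions. Whether place bears on these motif shares was not tested. A match is a description of letters and shows no binding.

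The 5 unmeasured regions described next were chosen for their M-ATAC signal, so M-ATAC values favour them by choice. The 5 with the highest merged fold among those found in all 4 M-ATAC samples had folds of 31.6, 28.3, 27.0, 26.8 and 26.6. The strongest, chr7:11384499-11384942, overlapped an exon of Gm45598 at 576 bp from its start and had folds of 15.2, 21.0, 15.7 and 13.4 in M-ATAC, but no peak in any of the 4 unconverted libraries. The other 4 had peaks in 8 of 8 libraries. The next strongest, whose sequence is not shown, had folds of 13.6, 20.4, 15 and 15.4 in M-ATAC, 10.5 and 9.40 in M-ATAC-NC and 9.99 and 9.58 in ATAC. At chr14:83008580-83008889 the folds were 16.2, 16.7, 14.6 and 15.1 in M-ATAC, 11.6 and 11.8 in M-ATAC-NC and 11.3 and 12 in ATAC. At chr8:97182405-97182889 M-ATAC values of 8.55, 13.4, 16.5 and 22.1 overlapped those of M-ATAC-NC (15.8 and 16.0) and ATAC (12.9 and 13.7). At chr8:40080974-40081443 they were 9.88, 16.2, 14.2 and 15.3, against 11.2 and 10.6 in M-ATAC-NC and 9.68 and 11 in ATAC. Nearest measured regions were 12922 to 204967 bp away. Of the 5 regions, 4 shared a 24-base stretch with other regions, in 116, 488, 384 and 392 of them, where 53.8% of all unmeasured regions found in 4 M-ATAC samples did. That on chromosome 14 shared none.

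SOX letters and AAGGTCA occurred together in 2 of these 5 regions, a pattern searched for after the sequences were seen, so that counts include the regions that prompted it. AACAAT followed by AAGGTCA after 40 to 80 bases was found, in either orientation, in 70 unmeasured regions (1.13%) and in 310 measured ones (0.512%). In regions with a peak in all 4 M-ATAC samples it was in 16 of 353 (4.53%, 2.81 to 7.24) and in 159 of 15056 (1.06%). The median gap was 52 bases, with 55 of the 70 between 50 and 57 bases, and 65 of the 70 shared a 24-base stretch with another region. Most of these occurrences thus lay in sequence found more than once among the regions. The Gm45598 and Gm49455 regions carried the pair with gaps of 55 and 52 bases, and the chromosome 8 regions shared a run of 45 bases, outside the printed stretches, and 1 of 39 bases within them. Stretches of the plus strand (GRCm38) are printed to show shared sequence side by side: chr7:11384672-11384871, chr16:10216441-10216709, chr8:97182586-97182785 and chr8:40081064-40081263. Capitals mark every match to the searched letters other than the CTCF part, namely SOX (AACAAT on this strand), AAGGTCA, TEAD (CATTCC) and NF-Y (CCAAT); the last stretch held none.
Gm45598 stretch: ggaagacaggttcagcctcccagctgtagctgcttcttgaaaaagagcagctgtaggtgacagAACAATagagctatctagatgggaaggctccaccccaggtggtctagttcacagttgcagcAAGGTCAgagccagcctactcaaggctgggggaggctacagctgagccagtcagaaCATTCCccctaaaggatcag
Gm49455 region: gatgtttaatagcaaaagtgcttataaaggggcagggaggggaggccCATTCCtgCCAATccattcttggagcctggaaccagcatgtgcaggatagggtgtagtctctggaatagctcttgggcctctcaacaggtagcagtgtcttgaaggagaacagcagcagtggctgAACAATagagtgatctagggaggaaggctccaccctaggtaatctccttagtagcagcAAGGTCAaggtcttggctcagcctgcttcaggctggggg
Chromosome 8 stretch at 97 Mb: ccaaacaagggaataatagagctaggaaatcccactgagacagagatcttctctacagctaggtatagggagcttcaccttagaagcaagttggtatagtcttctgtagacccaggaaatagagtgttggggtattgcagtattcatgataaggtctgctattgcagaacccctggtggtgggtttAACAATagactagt
Chromosome 8 stretch at 40 Mb: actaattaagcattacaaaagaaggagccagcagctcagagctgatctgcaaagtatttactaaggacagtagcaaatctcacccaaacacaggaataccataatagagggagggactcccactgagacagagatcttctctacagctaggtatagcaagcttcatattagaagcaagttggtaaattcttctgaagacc

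Each listed pluripotency gene had a measured region at its promoter. Of 25 such genes, 25 had a measured region within 3 kb of a start and 1 (4%), Tfcp2l1, also an unmeasured region. For comparison, 2.05% of 55341 annotated genes had an unmeasured and 40.6% a measured region there. Unmeasured regions were found at 0 of 20 lineage regulators, 0 of 9 genes of CTCF and cohesin, and 1 of 9 genes of DNA methylation, the methyltransferase Dnmt3a. No gene of these lists had an unmeasured region alone, and 4 had neither kind at the promoter: the lineage genes T, Hand1 and Tbx5 and the CTCF paralogue Ctcfl.

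Within 50 kb of a start there were 11 unmeasured regions near 9 of the 25 pluripotency genes (36%), against 23.2% of all annotated genes, 6 of 9 genes of DNA methylation, 2 of 20 lineage regulators and 2 of 9 genes of CTCF and cohesin. A peak in at least 1 M-ATAC sample was found at 5 of the 11 and none at 6, where 56.0% of all unmeasured regions had none. The region chr1:118626565-118626765, 1180 bp from a start of Tfcp2l1 (95.1 TPM), a factor of naive pluripotency, had a merged fold of 6.24 and M-ATAC peaks in replicates 2 and 3 (5.34 and 5.96), with peaks in 3 of 4 unconverted libraries. Both knockout KLF4 lists overlapped it. In an intron of Tet1, which oxidises methylated cytosine, chr10:62902928-62903107 had a fold of 5.18 and a peak in M-ATAC replicate 2 alone (4.92), none in unconverted libraries, and overlap by both knockout lists, and held the octamer. At 30023 bp from Klf2 (143 TPM), chr8:72349056-72349302, within Eps15l1, had a fold of 5.05 and peaks in M-ATAC replicates 2 and 3 (4.40 and 4.42) and in no unconverted library, and held TCAAGGTCA. Of the others, 7 near Zfp42, Utf1, Dppa4, Nanog, Dppa5a and Esrrb had merged folds from 3.91 to 7.06. The 10 regions named here were supported by at most 2 of 4 M-ATAC samples each. The plus strands of the Tet1 and Klf2 regions (GRCm38) are shown because each held the letters of a pluripotency factor: capitals mark ATTTGCAT, the octamer on the other strand, with TEAD and NF-Y letters in the former, and TGACCTTGA, the ESRRB letters on the other strand, in the latter.
Tet1 region: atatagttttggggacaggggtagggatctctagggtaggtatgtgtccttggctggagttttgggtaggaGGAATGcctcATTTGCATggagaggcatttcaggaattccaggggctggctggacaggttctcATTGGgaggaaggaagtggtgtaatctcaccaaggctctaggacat
Klf2 region: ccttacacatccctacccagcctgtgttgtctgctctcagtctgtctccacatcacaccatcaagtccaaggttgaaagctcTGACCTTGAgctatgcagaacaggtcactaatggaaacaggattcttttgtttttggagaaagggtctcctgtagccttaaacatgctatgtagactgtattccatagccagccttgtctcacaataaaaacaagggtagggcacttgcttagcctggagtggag

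Genes with an unmeasured region at the promoter had levels between those of all genes and of genes with a measured region. The 983 genes with such a region within 3 kb had a median of 0.32 TPM (0.19 to 0.48), against 3.42 TPM (3.15 to 3.67) for 20745 genes with a measured region and 0 TPM for all 47606 genes of the table. At least 1 TPM was reached by 43.2% of the 983, 59.2% of genes with a measured region and 28.2% of all genes. The difference of -3.10 TPM was -0.28 TPM against genes with a 1-CpG region. It reversed to 0.72 TPM among genes of at least 1 TPM, and was -6.42 TPM with a bound of 1 kb. The 983 genes fell into unlike classes. For 413 without a measured region the median was 0 TPM and 29 (7.02%, 4.93 to 9.90) had at least 1 TPM, against 4.20% of 26448 genes with no region there, while 570 that also had a measured region had a median of 9.06 TPM, with 69.5% at 1 TPM or more. Most genes whose only peak at the promoter was unmeasured had little or no RNA in this table, as had genes with no peak there.

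The 5 unmeasured regions within 1 kb of the most highly expressed genes were mostly weak. At chr4:80004647-80004796, in an exon of Gm11410 (1608 TPM), the fold was 2.82 with no peak in 8 libraries, and 92.7% of its 150 bases were identical to the mitochondrial genome in the best ungapped match. Whether RNA counted for Gm11410 came from mitochondria was not tested. A match of 24 bases to the mitochondrial genome was found in 1 unmeasured and 9 measured regions. The start of Swi5 (453 TPM), a recombination factor, lay in chr2:32282775-32283028, which had a fold of 11.3, a peak in M-ATAC replicate 2 alone (9.27), a CTCF match and CTCF peaks in 6 of 6 libraries (7.59 to 20). The regions near Gm4149 (482 TPM), Rbbp7 (324 TPM) and Zmynd8 (231 TPM) had folds of 3.74, 4.02 and 2.46 and 0 M-ATAC samples with a peak. The Rbbp7 region had peaks in both M-ATAC-NC libraries (4.99 and 3.47) and the Zmynd8 region in replicate 2 of M-ATAC-NC (2.80) and of ATAC (3.39). The latter lay 429 bp from a start of Zmynd8 and overlapped a start of BC046401 and an exon. Both knockout KLF4 lists overlapped it. The Swi5 region was thus the only 1 of these 5 that a M-ATAC sample called.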

How the data were processed

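The members and lists were chosen with earlier results of these data known. Per the study's methods, the authors trimmed reads with Trim Galore 0.4.4, aligned them to mm10 (Bismark 0.18.1 for converted and bowtie2 for ATAC and ChIP libraries; the aligner of the unconverted controls is not given in the sources used here), removed reads of low quality and duplicates with SAMtools 1.3, and called peaks with MACS2 per sample and on merged replicates. Which M-ATAC replicates were merged is not given in the sources used here. Each summit in the deposited MACS2 lists has a score, a fold (a ratio to local background) and a −log10 q; their −log10 p-value was not used. PeaKDEck peaks, as deposited, carry only a p-value, and their file names tell of subsampled reads. The authors' methylation tables give counts of methylated and unmethylated reads and a percent per CpG cytosine of merged replicates. The deposited FIMO matches carry a score and p-value. Expression is the authors' TPM after merging samples.

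Distinct regions were counted once (79943 summits, 66726 regions). Overlap meant at least 1 bp. Starts came from the supplied gene annotation of GRCm38, which matched 99.1% of genes in the TPM table. CpGs, masking and motifs were read from the GRCm38 sequence. Groups followed the sample titles. Differences over samples had exact two-sided sign-flip or permutation tests, adjusted by Benjamini-Hochberg over 8 tests. Merged lists have no replicates and got 95% Wilson or order-statistic intervals and ranges over 20 chromosomes; these cover counting error only. The WT and R462A lists were taken as the lists of the M-ATAC samples they stand under. Sample lists held 24113 to 32999 regions for M-ATAC, M-ATAC-NC and ATAC, and peaks were used at the depths deposited. Regions were named by rule: the 5 strongest with a peak in all 4 M-ATAC samples, the 5 within 1 kb of the highest TPM, the 3 of highest CTCF fold, the 3 strongest of the WT KLF4 set, up to 10 within 50 kb of a pluripotency gene, and the 3 with most CpGs. Sequence was printed whole up to 300 bases and otherwise as 200 bases, and not for every named region. Read-level data, signal tracks and the KLF4 M-ChIP samples without a list were not analysed here. Alternatives changed the rule, the overlap, the thresholds, the bins and the samples. Computation used python 3.11.15 with numpy 2.4.6, scipy 1.17.1 and pandas 2.3.3.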

Additional observations from a re-analysis of the deposited data

How the results depend on the processing

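Of 164 recomputed values, 9 changed direction; with 4 samples no p can pass 0.05, so kept calls say nothing of stability there. The 1-CpG comparison, joint bins, and alternatives by CTCF or KLF4 group were chosen after seeing the data. M-ATAC support was -0.0416 and KLF4 overlap -0.380 within width bins; KLF4 overlap was 0.0513 in R462A lists alone. The relative support of M-ATAC against ATAC changed sign to -0.0721 against 1-CpG regions and to -0.0244 with the replicate block of numbers 1 and 2; without 1 replicate each it ran from -0.0371 to 0.0567. That of M-ATAC against M-ATAC-NC changed to -0.0015 against 1-CpG regions. M-ATAC-NC against ATAC changed to 0.00851 with a minimum of 5 reads, and ran from -0.0810 to 0.0128 without 1 replicate each. Samples of equal number did not deviate together (correlations -0.0600 to 0.0184), which does not settle whether equal numbers are pairs. By the methods unconverted controls were aliquots of converted samples, and the main tests of relative support left out such pairing. The block of equal numbers moved M-ATAC against M-ATAC-NC to 0.00967. CTCF overlap without 1 replicate each ran from -6.90 to -6.17 (exact p 0.0625, the smallest with 5), and was -7.09 without M-ChIP-NC and -7.00 with M-ChIP and M-ChIP-NC averaged. With a minimum of 5 reads, a −log10 q of at least 5, and against 1-CpG regions, the width difference was -121, -129 and -16.5 bp, that of fold -2.24, -1.40 and -0.267, and that of promoter TPM -3.44, -3.84 and -0.28. TPM differed by 0.72 with at least 1 TPM, -6.42 at 1 kb and -3.42 for genes without a measured region. The promoter difference was -27.4 with 5 reads, -17.0 within width bins, -22.7 within fold bins, -16.6 within both and -1.05 against 1-CpG regions. The share without a CpG was 52.9% with 5 reads. The causes were not tested. Merged lists give no spread between samples, and 4 samples cannot reach a p below 0.13. Support was taken at the depths deposited, and how it depends on depth was not tested.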
